A study of Mus musculus with 24 samples.

Results

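Sox9, Acan, Chad, Cnmd, Clec3a, Efemp1, Smoc1, Ecrg4 and Scara3 are 9 genes of cartilage or matrix biology, followed here in the pressure-loaded mouse heart. They are 9 of the 25229 gene symbols in the count table, and all 9 were among the 13571 genes with enough counts to be tested. They were picked by their measured values, because several of them rose or held after aortic constriction in air and were lower when the constricted mice also breathed benzene. The choice used TAC/Benzene, TAC/Air and Sham/Air values, and each comparison below shares at least 1 of these groups. The values of the 9 genes are therefore descriptions in every comparison. Where calls of the 9 by a test are given below, they describe the choice and are no support.

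Cartilage is an avascular tissue built by chondrocytes, whose identity is set by the transcription factor SOX9. Chondrocytes secrete collagens and a hydrated gel of aggrecan, held together by link proteins and small adhesive glycoproteins. In the heart, SOX9 and several of these matrix genes are known from the developing and adult valves, and SOX9 is also known from activated cardiac fibroblasts. A chondrocyte-like matrix program is therefore used as a marker of connective tissue remodelling.

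Poly-A RNA was sequenced from the septum and left ventricle of C57BL/6 males. Some had transverse aortic constriction (TAC), a band on the aorta that makes the ventricle pump against higher pressure, and the others a sham operation. Exposure began after 1 week of recovery and lasted 6 weeks, with 5 days per week and 6 hours on each day in 50 ppm benzene or in HEPA-filtered air. The 4 groups were TAC surgery with benzene (TAC/Benzene), TAC surgery with air (TAC/Air), sham surgery with benzene (Sham/Benzene) and sham surgery with air (Sham/Air), with 6 libraries each. No transgene or mutant allele is named in the labels, and ages are not given there.

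Total counts ran from 10016860 to 13724100 in TAC/Benzene, 10479981 to 13581729 in TAC/Air, 9396445 to 14632231 in Sham/Benzene and 4170660 to 12718494 in Sham/Air. Sham/Air replicate 1 was the shallowest library and stood apart from the others. Its summed fibroblast markers were at 3085 CPM (reads of the gene scaled to a fixed library size), against 1271 to 1623 CPM in the other Sham/Air libraries. The defining cardiomyocyte genes were abundant in each library, with summed levels of 6 markers of at least 41212 CPM. Levels below are CPM on TMM-scaled library sizes, and fold changes are on the log2 scale ± SE from 1 fit of all 24 libraries.

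The name cartilage-associated held only in part. Of 40 other textbook cartilage genes, 13 had too few counts to be tested. Among them the cartilage collagen gene Col2a1 had 7 reads over all TAC/Benzene libraries, 24 over all TAC/Air libraries, 7 over all Sham/Benzene libraries and 0 over all Sham/Air libraries. The matrilin gene Matn1 had 6 reads in all 24 libraries. Others of the 40 were abundant: mean Cilp was 408 CPM in TAC/Benzene and 422 CPM in TAC/Air, and mean Comp 162 and 188 CPM. The summed level of the 40 had a median of 1683 CPM in TAC/Benzene and 1751 CPM in TAC/Air. In sham mice that median was 433 CPM in Sham/Benzene and 397 CPM in Sham/Air. In TAC mice 7 of the 9 genes had a lower mean with benzene. Of these, 6 were called lower, all but Cnmd, where 0.287% of all tested genes were. The genes were chosen on this comparison, so these counts only describe the choice. The means of Sox9 and Acan were higher in TAC/Benzene than in TAC/Air, against the name.

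**Figure D1:**
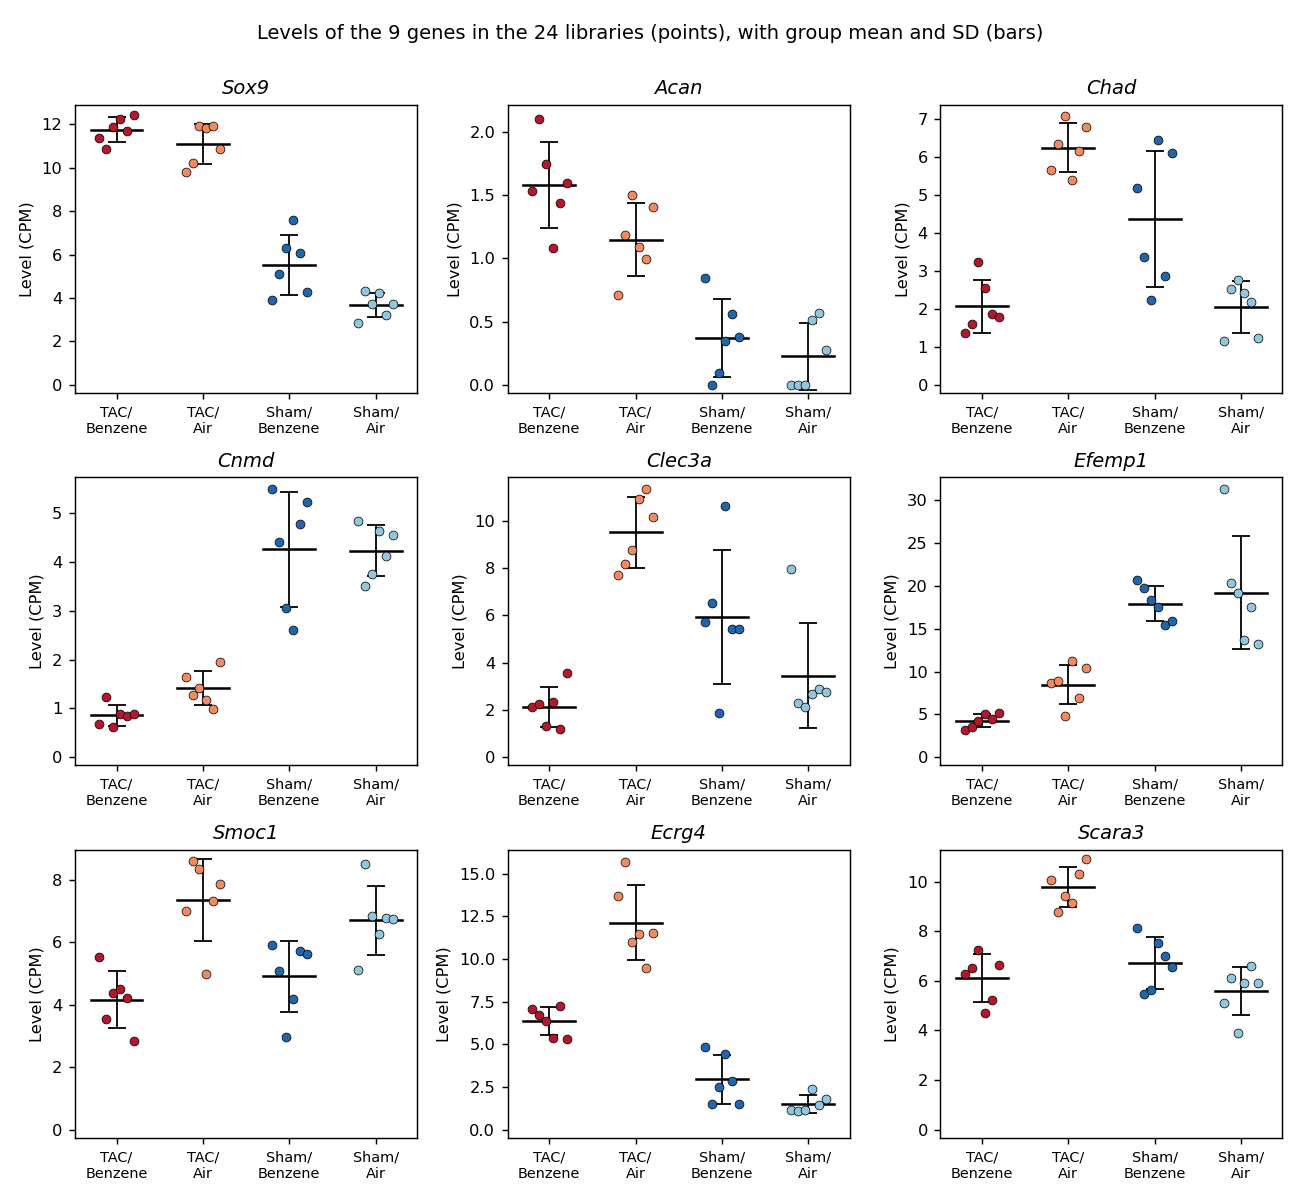
Level of each of the 9 genes (CPM, linear axis) in each library (points) of TAC/Benzene, TAC/Air, Sham/Benzene and Sham/Air, with the mean (line) and SD (error bar, n = 6 libraries per group). Chad, Clec3a, Ecrg4 and Scara3 were lower in all 6 TAC/Benzene libraries than in any TAC/Air library. Sox9, Acan, Cnmd, Efemp1 and Smoc1 overlapped between those groups.

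Sox9, the transcription factor at the head of the cartilage program, was higher after TAC under either exposure. Its level was 10.9, 11.8 and 12.4 CPM (lowest, median and highest library) in TAC/Benzene, against 9.82, 11.3 and 11.9 CPM in TAC/Air. In sham mice it was 3.90, 5.57 and 7.61 CPM in Sham/Benzene, against 2.84, 3.73 and 4.31 CPM in Sham/Air. All TAC libraries of either exposure lay above all sham libraries. The log2 fold change of TAC over sham was 1.07 ± 0.13 in benzene and 1.57 ± 0.14 in air. Benzene over air was at 0.08 ± 0.12 in TAC mice, with an interval of -0.16 to 0.32. The genes were chosen on this comparison, so the interval is a description.

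Acan encodes aggrecan, the large proteoglycan that gives cartilage its swelling pressure, and SOX9 is known to drive its transcription. It had few reads in each group. Its level was 1.08, 1.56 and 2.10 CPM in TAC/Benzene, against 0.707, 1.14 and 1.50 CPM in TAC/Air. The sham levels were 0.00, 0.362 and 0.844 CPM in Sham/Benzene, against 0.00, 0.138 and 0.564 CPM in Sham/Air, with no read in 1 Sham/Benzene library and 3 Sham/Air libraries. The highest library had 29 reads, so these levels carry a wide counting error. Acan passed the filter on low counts through the TAC groups. Its log2 fold change was 2.09 ± 0.43 for TAC over sham in benzene, 1.97 ± 0.50 in air and 0.46 ± 0.35 for benzene over air in TAC mice. Like Sox9, it was not lower in TAC/Benzene.

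Chad encodes chondroadherin, a leucine-rich repeat protein that binds collagen and cell-surface integrins in cartilage. Its level was 1.36, 1.81 and 3.23 CPM in TAC/Benzene, against 5.38, 6.24 and 7.06 CPM in TAC/Air. The sham levels were 2.22, 4.26 and 6.44 CPM in Sham/Benzene, against 1.14, 2.29 and 2.77 CPM in Sham/Air. The highest TAC/Benzene library was below the lowest TAC/Air library, and the TAC/Benzene libraries overlapped those of Sham/Air. Benzene over air in TAC mice was at -1.60 ± 0.24. TAC over sham was at -1.09 ± 0.25 in benzene and 1.55 ± 0.25 in air, which are opposite signs.

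Clec3a encodes a C-type lectin secreted by chondrocytes, a relative of tetranectin. It had the lowest log2 fold change of the 9 genes for benzene over air in TAC mice, at -2.15 ± 0.31. The level was 1.18, 2.19 and 3.55 CPM in TAC/Benzene, against 7.70, 9.46 and 11.3 CPM in TAC/Air. In sham mice it was 1.85, 5.56 and 10.6 CPM in Sham/Benzene, against 2.11, 2.71 and 7.96 CPM in Sham/Air. The TAC groups did not overlap, and 1 library in each sham group set its upper end. These were Sham/Benzene replicate 4 at 10.6 CPM (next 6.53) and Sham/Air replicate 1 at 7.96 CPM (next 2.90). TAC over sham was at -1.49 ± 0.32 in benzene and 1.60 ± 0.31 in air, so Clec3a had the same reversal of sign as Chad.

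Cnmd encodes chondromodulin, a membrane glycoprotein whose released part blocks blood vessel growth and which is known from cartilage and heart valves. It went down with TAC in either exposure. The level was 0.611, 0.862 and 1.23 CPM in TAC/Benzene, against 0.995, 1.35 and 1.95 CPM in TAC/Air. The sham levels were 2.60, 4.60 and 5.48 CPM in Sham/Benzene, against 3.51, 4.33 and 4.83 CPM in Sham/Air. All TAC libraries lay below all sham libraries, and the TAC groups overlapped. Benzene over air was at -0.71 ± 0.24 in TAC mice. TAC over sham was at -2.28 ± 0.22 in benzene and -1.56 ± 0.20 in air.

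Of the 9 genes 5 matched the RefSeq promoter table of the GRCm38.p6 build, which gives 250 bases before and 50 after each start of transcription. The reads were aligned to another build, mm9 per the submitters' processing notes, so these coordinates serve for the sequences only. The promoters of Chad, Ecrg4 and Cnmd are shown because the fold changes of TAC over sham in these genes differ in kind: opposite signs in benzene and air for Chad, positive in both for Ecrg4 and negative in both for Cnmd. They are Chad at chr11:94564797-94565096 (plus strand), Ecrg4 at chr1:43730352-43730651 (plus strand) and Cnmd at chr14:79662134-79662433 (minus strand), each 5′ to 3′ on the gene's strand, with TATAAA in capitals.
Chad: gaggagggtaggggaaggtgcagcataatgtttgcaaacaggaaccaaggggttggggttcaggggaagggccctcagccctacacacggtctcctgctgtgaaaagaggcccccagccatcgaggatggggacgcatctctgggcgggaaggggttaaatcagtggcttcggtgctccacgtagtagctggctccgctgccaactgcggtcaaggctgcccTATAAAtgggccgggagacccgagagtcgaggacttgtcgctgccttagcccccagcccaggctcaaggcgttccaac
Ecrg4: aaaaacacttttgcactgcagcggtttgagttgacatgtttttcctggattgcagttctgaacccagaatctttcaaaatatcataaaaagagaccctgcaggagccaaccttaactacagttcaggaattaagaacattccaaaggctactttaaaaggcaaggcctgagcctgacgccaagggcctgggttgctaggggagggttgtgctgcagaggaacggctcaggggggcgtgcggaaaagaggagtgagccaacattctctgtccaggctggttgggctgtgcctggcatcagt
Cnmd: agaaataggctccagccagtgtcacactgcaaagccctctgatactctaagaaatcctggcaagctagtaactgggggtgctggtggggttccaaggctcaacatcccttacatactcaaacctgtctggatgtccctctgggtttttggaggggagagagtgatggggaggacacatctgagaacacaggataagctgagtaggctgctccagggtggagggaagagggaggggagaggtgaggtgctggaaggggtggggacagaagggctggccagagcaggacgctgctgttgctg

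The Chad promoter held TATAAA on the gene's strand, 28 bases before the start, and the other 4 promoters did not hold it on either strand. Of all 32851 listed promoters, 13.6% held it. The SOX core letters ACAAAG or ACAATG, searched on both strands, were in none of the 5 windows, against 28.6% of all promoters. The count of CG pairs was 13 for Chad, 5 for Ecrg4, 1 for Cnmd, 11 for Efemp1 and 31 for Acan, against a median of 7 over the table. No match says only that these letters are not in these 300 bases.

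Efemp1 encodes fibulin-3, a secreted glycoprotein of elastic connective tissue. Like Cnmd, it was lower with TAC and lowest with both TAC and benzene. Its level was 3.23, 4.37 and 5.14 CPM in TAC/Benzene, against 4.85, 8.79 and 11.2 CPM in TAC/Air. In sham mice it was 15.5, 17.9 and 20.7 CPM in Sham/Benzene, against 13.2, 18.4 and 31.3 CPM in Sham/Air. The TAC groups overlapped through TAC/Air replicate 3 at 4.85 CPM, and both lay below all sham libraries. Benzene over air was at -0.99 ± 0.20 in TAC mice, and TAC over sham at -2.07 ± 0.20 in benzene and -1.15 ± 0.19 in air.

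Smoc1 encodes a secreted calcium-binding protein of the SPARC family that antagonizes bone morphogenetic protein signalling. Its level was 2.84, 4.29 and 5.52 CPM in TAC/Benzene, against 4.99, 7.61 and 8.62 CPM in TAC/Air, and these groups overlapped. The sham levels were 2.96, 5.35 and 5.91 CPM in Sham/Benzene, against 5.11, 6.76 and 8.52 CPM in Sham/Air. Its mean was lower under benzene in both surgeries, as was that of Efemp1. Benzene over air was at -0.82 ± 0.17 in TAC mice and -0.47 ± 0.18 in sham mice. TAC over sham was at -0.23 ± 0.18 in benzene and 0.11 ± 0.17 in air, both within the spread between libraries.

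Ecrg4 encodes the precursor of augurin, a secreted peptide known from chondrocytes, the choroid plexus and wound responses. It had the highest log2 fold change of the 9 genes for TAC over sham in air, at 2.95 ± 0.25. The level was 5.32, 6.56 and 7.25 CPM in TAC/Benzene, against 9.50, 11.5 and 15.7 CPM in TAC/Air. The sham levels were 1.52, 2.68 and 4.85 CPM in Sham/Benzene, against 1.10, 1.29 and 2.40 CPM in Sham/Air. TAC/Benzene lay between TAC/Air and Sham/Benzene without touching either. Benzene over air was at -0.93 ± 0.20 in TAC mice, and TAC over sham in benzene at 1.09 ± 0.22.

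Scara3 encodes a class A scavenger receptor protein of internal membranes that is induced by oxidative stress. Its level was 4.70, 6.41 and 7.25 CPM in TAC/Benzene, against 8.78, 9.73 and 10.9 CPM in TAC/Air. The sham levels were 5.47, 6.79 and 8.12 CPM in Sham/Benzene, against 3.90, 5.92 and 6.61 CPM in Sham/Air. All TAC/Air libraries stood above all libraries of the other groups. Benzene over air was at -0.67 ± 0.13 in TAC mice. TAC over sham was at -0.14 ± 0.13 in benzene and 0.78 ± 0.13 in air.

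**Figure D2:**
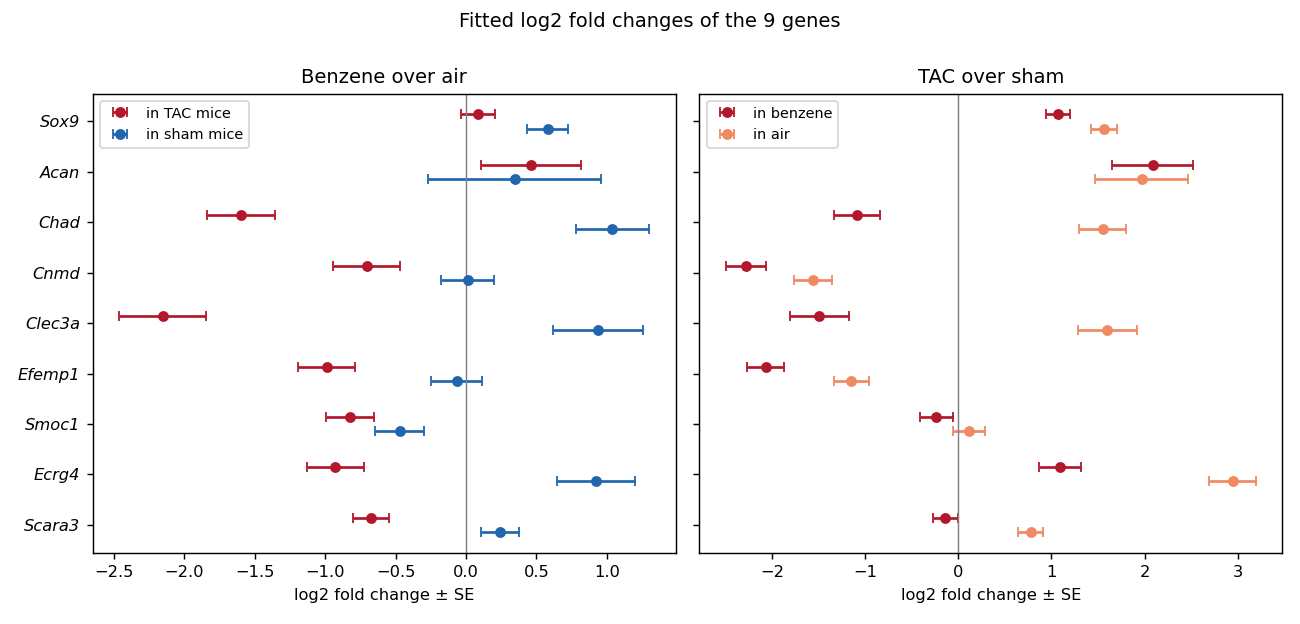
Log2 fold change ± SE of each of the 9 genes from the fit of all 24 libraries (points and horizontal bars), for benzene over air in TAC and in sham mice (left) and for TAC over sham in benzene and in air (right). In TAC mice 7 genes lie left of 0 for benzene, and Chad and Clec3a lie on opposite sides of 0 for TAC in benzene and in air.

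Over the 9 genes, the median log2 fold change of benzene over air in TAC mice was -0.82, against 0.00 over all tested genes. By edgeR's quasi-likelihood test at an adjusted p under 0.05, 6 of the 9 were called lower, where 0.287% of all tested genes were, and none was called higher (0.295%). Chad, Clec3a, Ecrg4 and Scara3, 4 of the 9, lay wholly below TAC/Air, as did 1.21% of all tested genes, and none lay wholly above (1.5%). The genes were chosen on these values, so neither count is support. The 6 calls became 3 (Chad, Clec3a and Scara3) without TAC/Benzene replicate 2, and the same 3 with the replicate number as a block. They were 4 without TAC/Benzene replicate 6 or TAC/Air replicate 2, and 5 without TAC/Benzene replicate 3 or 4 or TAC/Air replicate 1 or 3.

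Surgery gave a mixed picture among the same genes. In air 6 of 9 were called higher after TAC, where 8.81% of all tested genes were, and 2 lower, where 7.35% were (16.2% in either direction). Of these, 5 lay wholly above Sham/Air (5.78% of all tested genes) and 2 wholly below (3.71%). In benzene 3 of 9 were called higher (8.67% of all tested genes) and 4 lower (7.97%), where 16.6% of all tested genes were called in either direction. There 3 lay wholly above Sham/Benzene (7.62%) and 2 wholly below (6.31%). The median of the 9 was -0.23 in benzene and 1.55 in air, and that of all tested genes was 0.00 in benzene and -0.01 in air. TAC/Benzene and TAC/Air libraries also chose the genes, so these counts are descriptions too. Acan is among those called higher and lying wholly above in both exposures, and it passed the low-count filter only through the TAC groups. In a fit of TAC/Air and Sham/Air alone Acan was not tested, and 5 were called higher.

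The response to benzene in TAC mice minus that in sham mice was at -3.09 ± 0.45 for Clec3a, -2.64 ± 0.35 for Chad, -1.85 ± 0.34 for Ecrg4 and -0.91 ± 0.19 for Scara3. These 4 of 9 genes were called lower in that difference, where 0.103% of all tested genes were, and none was called higher (0.0663%). The genes were chosen on values that enter this difference, so these calls are descriptions and no support. For Acan it was 0.12 ± 0.77 and for Smoc1 -0.35 ± 0.24. In Sox9 it was at -0.50 ± 0.19, in Cnmd at -0.72 ± 0.30 and in Efemp1 at -0.92 ± 0.27. Scara3 was no longer called without TAC/Benzene replicate 1, 2, 4 or 5, TAC/Air replicate 1, 3, 5 or 6, Sham/Benzene replicate 1, 4 or 5, or Sham/Air replicate 2, 4 or 6, which left 3 genes. It was also lost with the replicate number as a block and without the low-count filter, which left the same 3, Chad, Clec3a and Ecrg4. Without Sham/Air replicate 1 Efemp1 was called too, which made 5.

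Benzene over air in sham mice shares its Sham/Air libraries with the comparison that chose the genes, so nothing is read from its counts for the 9. By edgeR's quasi-likelihood test 0 of 9 were called, where 0.0221% of all tested genes were (0.00737% higher and 0.0147% lower). Acan entered that fit only through the TAC groups. None of the 9 lay wholly above Sham/Air, as 0.162% of all tested genes did, or wholly below it, as 0.118% did. At an unadjusted p under 0.05 there were 5 of 9 genes, and 777 of 13571 over the whole table. DESeq2 called 1 of 9, Chad. The median log2 fold change of the 9 was 0.34, against 0.00 over all tested genes.

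As a description, the log2 fold change of benzene over air in sham mice was 1.04 ± 0.26 for Chad and 0.58 ± 0.14 for Sox9. Clec3a was at 0.94 ± 0.32, Ecrg4 at 0.92 ± 0.28 and Smoc1 at -0.47 ± 0.18. Without Sham/Benzene replicate 4 Chad was at 0.88, Sox9 at 0.46, Clec3a at 0.67 and Ecrg4 at 0.75. Among the Sham/Benzene libraries it was the top one for 3 of the 9 genes, and replicate 1 was the top one for 6.

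Also in sham mice, Acan had a wide estimate, and Cnmd and Efemp1 had near-zero ones. Scara3 was at 0.24 ± 0.14 (95% interval -0.02 to 0.51), Acan at 0.34 ± 0.61, Cnmd at 0.01 ± 0.19 and Efemp1 at -0.07 ± 0.18. The 95% interval was -0.43 to 0.29 for Efemp1, -0.35 to 0.38 for Cnmd and -0.86 to 1.54 for Acan. Within that spread, Efemp1 changed sign without Sham/Air replicate 1 (0.0942), and Cnmd without Sham/Benzene replicate 1, 5 or 6 or Sham/Air replicate 2 or 3 (lowest -0.0688).

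Set per length of the longest GENCODE vM21 transcript, 8 of the genes could be ordered, and Ecrg4 was not matched. In TAC/Benzene the highest was Clec3a at 3.60 ± 1.45 CPM per kilobase, followed by Sox9 at 2.84 ± 0.14 and Efemp1 at 2.10 ± 0.38 (SD, n = 6). In TAC/Air the order was Clec3a at 16.1 ± 2.54, Efemp1 at 4.17 ± 1.14 and Chad at 3.71 ± 0.38 CPM per kilobase. In Sham/Benzene Clec3a led at 10.02 ± 4.76, before Efemp1 at 8.81 ± 1.02, and in Sham/Air Efemp1 at 9.43 ± 3.23, before Clec3a at 5.84 ± 3.77 CPM per kilobase. Acan was last in the 4 groups, at 0.215 ± 0.046 CPM per kilobase in TAC/Benzene, 0.156 ± 0.039 in TAC/Air, 0.050 ± 0.042 in Sham/Benzene and 0.031 ± 0.036 in Sham/Air. Clec3a and Sox9 in TAC/Benzene, Efemp1 and Chad in TAC/Air, and the leading pair of each sham group differed by less than the sum of their SDs.

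Of 40 cartilage genes outside the 9, 27 were tested. For benzene over air in TAC mice 0 of 27 were called by edgeR's quasi-likelihood test, where 0.287% of all tested genes were called lower and 0.295% higher, a background at which 0 says little about the list. There were 3 lower and 2 higher at an unadjusted p under 0.05, against 837 of 13571 genes in either direction over the whole table. DESeq2 called 1 of the 27, Cytl1. The median log2 fold change of the 27 was -0.16, against 0.00 over all tested genes, and 19 of 27 lay below 0, against 50% of all tested genes. The 3 lower ones, named after their values were seen, were the link protein gene Hapln1 at -1.77 ± 0.56, the leucine-rich proteoglycan gene Epyc at -1.27 ± 0.39 and the cytokine-like gene Cytl1 at -0.67 ± 0.20. Cytl1 was called without Sham/Air replicate 1 (edgeR adjusted p = 0.00923) and in a fit of only the TAC groups (edgeR adjusted p = 0.00661), against 0.175 in the fit of all libraries. Hapln1 rested on 14 reads in TAC/Benzene and 54 in TAC/Air.

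**Figure D3:**
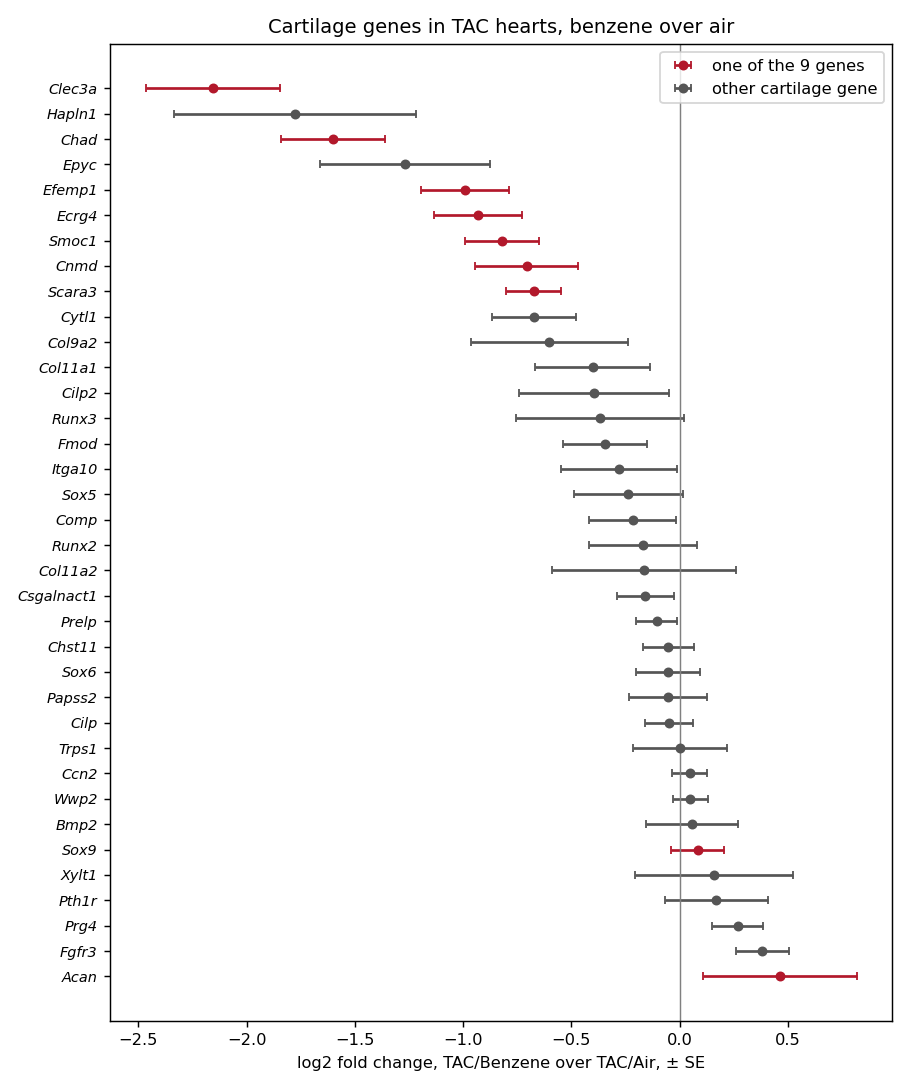
Log2 fold change ± SE of TAC/Benzene over TAC/Air for the 9 genes (red) and the 27 other tested cartilage genes (grey), sorted from lowest to highest. Clec3a is lowest at -2.15 and Acan highest at 0.46, and of the other cartilage genes Hapln1 is lowest at -1.77.

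After TAC in benzene 13 of the 27 were called higher and 2 lower, where 8.67% and 7.97% of all tested genes were. After TAC in air 9 were called higher and 1 lower, where 8.81% and 7.35% were. Their median log2 fold change was 0.33 in benzene and 0.49 in air. The highest calls by p were the same in both. Cilp, which encodes a cartilage intermediate layer protein, was at 3.52 ± 0.12 in benzene and 3.89 ± 0.13 in air (edgeR adjusted p = 8.50e-17 in benzene and 2.21e-17 in air). Comp, the pentameric cartilage oligomeric matrix protein gene, was at 3.42 ± 0.23 in benzene and 4.35 ± 0.24 in air (edgeR adjusted p = 1.22e-11 in benzene and 4.48e-13 in air). Prelp, a leucine-rich matrix protein gene, was at 1.30 ± 0.10 in benzene and 1.61 ± 0.10 in air (edgeR adjusted p = 1.28e-10 in benzene and 3.27e-12 in air). The matricellular gene Ccn2 was at 2.37 ± 0.09 in benzene and 2.62 ± 0.09 in air (edgeR adjusted p = 8.50e-17 in benzene and 2.21e-17 in air).

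Sox6, a transcription factor that works with SOX9 in chondrocytes, was lower, at -0.57 ± 0.15 in benzene and -0.52 ± 0.15 in air (edgeR adjusted p = 0.00766 in benzene and 0.0169 in air). Hapln1 was called lower after TAC in benzene, at -1.89 ± 0.56 (edgeR adjusted p = 0.019), but not without Sham/Benzene replicate 2 (-1.52, edgeR adjusted p = 0.0722), and was at 0.74 ± 0.53 in air (edgeR adjusted p = 0.385). The difference of the benzene responses was at -2.63 ± 0.77 for Hapln1 and did not pass (edgeR adjusted p = 0.367). For that difference edgeR called 0 of the 27, where 0.169% of all tested genes were called, and DESeq2 called Fmod lower. At an unadjusted p under 0.05 there were 9 lower and 1 higher, against 637 of 13571 genes over the whole table. The median of the 27 was -0.31, against 0.00 over all tested genes. In sham mice 0 of the 27 were called for benzene by edgeR or by DESeq2. There edgeR called 0.0221% of all tested genes, a background at which 0 says little about the list. At an unadjusted p under 0.05 there were 7 higher and 3 lower, against 777 of 13571 genes over the whole table. The median of the 27 was 0.22, against 0.00 over all tested genes.

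Markers of other cell types moved with some of these results. In bulk tissue, fewer cells of a type and less RNA per cell cannot be told apart. The summed level of 4 neutrophil markers was 34.6 to 42.9 CPM in TAC/Benzene, against 6.42 to 11.5 CPM in TAC/Air, and all 4 of the markers were called higher, where 0.295% of all tested genes were. The sum of 5 atrial markers was 77.0 to 91.7 CPM in TAC/Benzene, against 95.9 to 124 CPM in TAC/Air, and 46.9 to 269 CPM in Sham/Benzene, against 55.7 to 95.2 CPM in Sham/Air. Sham/Benzene replicate 4 held the 269 CPM. Of the atrial markers 4 were tested, and 0 were called for benzene over air in TAC mice, where 0.582% of all tested genes were. Much of the atrial sum in TAC mice was Dkk3, a secreted glycoprotein gene named after its values were seen, at 47.2 ± 1.64 CPM in TAC/Benzene and 64.7 ± 3.51 CPM in TAC/Air (SD, n = 6). The part of these markers in the results on the 9 genes was not tested.

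The summed level of 6 fibroblast markers overlapped between TAC groups, at 3217 to 3752 CPM in TAC/Benzene and 3352 to 3992 CPM in TAC/Air. In sham mice it was 1287 to 1720 CPM in Sham/Benzene, against 1271 to 3085 CPM in Sham/Air. Cardiomyocyte markers were at 43239 to 46510 CPM in TAC/Benzene, 41212 to 46941 CPM in TAC/Air, 55956 to 65111 CPM in Sham/Benzene and 60589 to 90015 CPM in Sham/Air. Mesothelial, Schwann cell and smooth muscle sums overlapped between TAC/Benzene and TAC/Air, as did lung markers, which were at most 0.779 CPM in either TAC group. Lung markers were at 0.617 to 2.47 CPM in Sham/Benzene, against 6.82 to 10.8 CPM in Sham/Air. The 2 that were tested were called lower, where 0.0147% of all tested genes were. The same 2 were called lower after TAC in air, where 7.35% of all tested genes were. All Sham/Air libraries thus stood above those of each other group in this sum, and the cause was not tested.

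Valve markers were of interest because Sox9, Acan and Cnmd are known from valves. Of 7 listed genes 6 were tested, and 3 of the 7 are also in the cartilage list. Their sum was 327 to 381 CPM in TAC/Benzene, against 303 to 382 CPM in TAC/Air, and 228 to 286 CPM in Sham/Benzene, against 209 to 335 CPM in Sham/Air. The sum follows its more abundant genes, and single genes, named after their values were seen, went both ways. Mean Prg4 was 70.1 CPM in TAC/Benzene and 58.3 CPM in TAC/Air, and mean Scx 15.8 and 12.8 CPM. Mean Hapln1 was 0.209 CPM in TAC/Benzene and 0.719 CPM in TAC/Air, and mean Col2a1 0.101 and 0.316 CPM. For benzene over air in TAC mice 1 of the 6 was called, where 0.287% of all tested genes were called lower. It was the Wnt inhibitor gene Wif1, at -0.92 ± 0.19 (edgeR adjusted p = 0.0164). Wif1, named after its values were seen, was at 3.44 ± 0.40 CPM in TAC/Benzene and 6.53 ± 1.13 CPM in TAC/Air, and at 8.06 ± 2.19 CPM in Sham/Benzene and 6.00 ± 1.65 CPM in Sham/Air (SD, n = 6). That call was lost without TAC/Benzene replicate 2 or 6 or TAC/Air replicate 4 or 6 (edgeR adjusted p at most 0.0578). The benzene response of Wif1 differed between surgeries by -1.30 ± 0.27 (edgeR adjusted p = 0.032), a call that was lost in 19 of 29 alternative settings, with an edgeR adjusted p of at most 0.0856.

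None of the 8 genes most like the mean standardised profile of the 9 was in the cartilage list. Over the 24 libraries, which share groups and depth with that profile, Dpt (dermatopontin, a matrix protein) had a Pearson correlation of 0.82 with it. Next came Slamf9 at 0.76, the MHC class II chain gene H2-Aa at 0.73, the adaptor gene Lat2 at 0.73 and Parvg at 0.72. Arhgap9 was at 0.71, and H2-Ab1 and the invariant chain gene Cd74 both at 0.70. The levels of Cd74 averaged 92.8 CPM in TAC/Benzene and 154 CPM in TAC/Air, and 132 CPM in Sham/Benzene and 136 CPM in Sham/Air. The 9 genes did not share 1 pattern: against the mean of the other 8, the correlation over the 24 libraries was 0.86 for Scara3, 0.79 for Chad and 0.71 for Clec3a, and it was -0.31 for Cnmd and -0.25 for Efemp1.

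**Figure D4:**
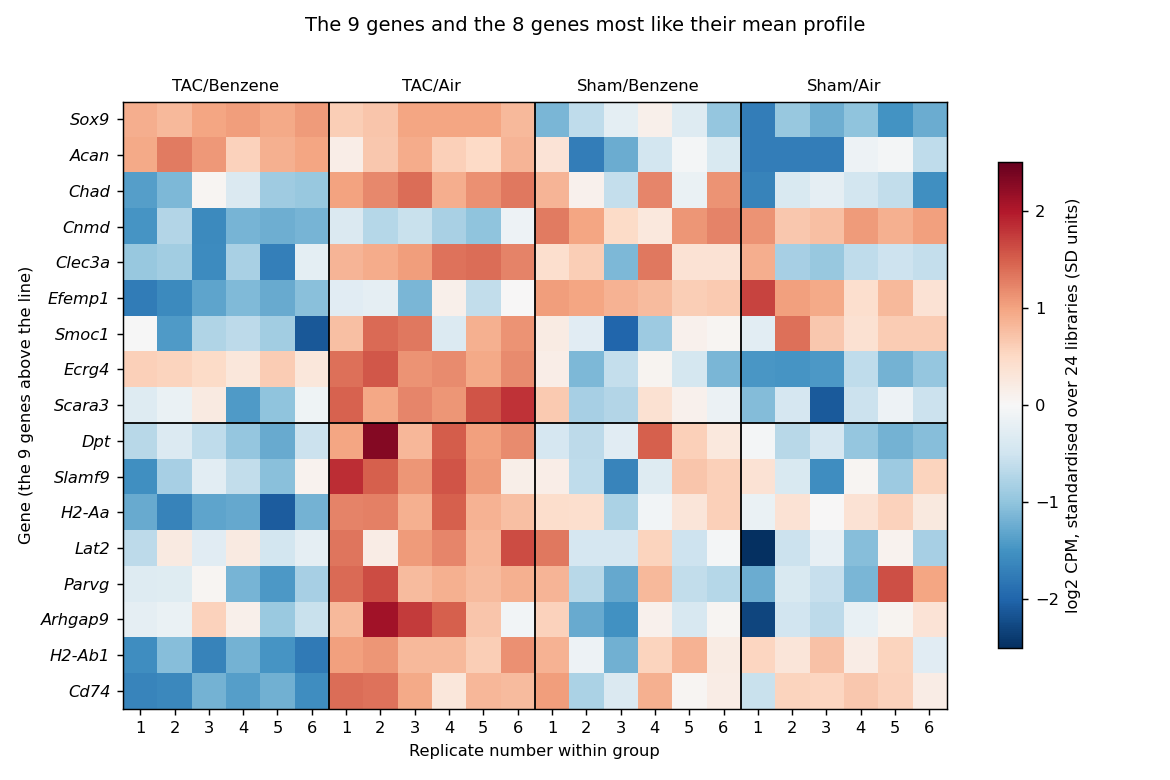
Log2 CPM standardised over the 24 libraries (colour, in SD units), for the 9 genes (above the line) and the 8 genes whose profile was most like their mean (below it), with libraries in columns by group. Scara3, Chad and Clec3a have their highest group mean in TAC/Air, while Cnmd and Efemp1 have theirs in the sham groups.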

How the data were processed

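Poly-A RNA of heart tissue was sequenced as 24 paired-end libraries, per the labels' protocols. The authors deposited 1 table of raw read counts per gene symbol, with no normalization. The submitters' processing notes list the mm9 build, STAR, DESeq2 and FastQC 0.11.9. For the counting program, its annotation and its strand setting, the answer is not given in the sources used here, so reads of overlapping genes cannot be told apart.

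Groups and replicate numbers came from the sample titles. Which animal gave which library is not labelled, and p-values thus cover the variation among these samples alone, which may be technical. Genes passed the edgeR 4.0.16 (R 4.3.3) expression filter (count threshold 10, total threshold 15), which kept 13571, and the genes left out held 0.0747% of counts. TMM scaling and a robust quasi-likelihood fit of all 24 libraries with 1 coefficient per group gave 5 contrasts. Benjamini-Hochberg adjustment ran over all tested genes, and calls were at an adjusted p under 0.05. SEs are the log2 fold change divided by the square root of F, intervals are 1.96 SE, and log2 CPM used a prior count of 2. The fit was tested on simulated data.

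The 9 genes and the gene lists were chosen with earlier results of these data known. The sham comparison, planned as a test of the 9, shares Sham/Air with the choice and is given as a description. Named genes were the 9, up to 4 called genes of smallest p per direction in each list and comparison, and the 8 genes most like the mean profile. Alternatives were RLE scaling, DESeq2 1.42.0, no filter, genes averaging 1 CPM or more, a fit on just the pair of groups at hand, a block for replicate number, and leaving out each library.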

Additional observations from a re-analysis of the deposited data

Results flagged for a closer look

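For 4 of the 9 genes the response to benzene was called different between surgeries. The response in TAC mice minus that in sham mice was -3.09 on the log2 scale for Clec3a, -2.64 for Chad, -1.85 for Ecrg4 and -0.914 for Scara3. The 9 genes were chosen on values that enter this difference, so it is a description. Scara3 lost the call with the replicate block, without the low-count filter and in several fits that left out 1 library. For the Wnt inhibitor gene Wif1, which was not among the 9, the same difference was -1.3 (edgeR adjusted p = 0.032), and its call was lost in 19 of 29 alternative settings.

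In 6 of 100 sets of 6 libraries, over 25 genes, 1 library lay far from the rest by Dixon's test. Chance gives this in about 1 of 20 sets when the genes are fixed beforehand. Here Wif1 and Dkk3 were added after their values were seen, and others by their calls, so nothing is read from the rate. Of the 6 flagged libraries 4 were Sham/Air replicate 1, the shallowest library. It had 7.96 CPM of Clec3a (next 2.90), 1.42 CPM of Hapln1 (next 0.501), 34.4 CPM of Sox6 (next 22.1) and, at the low end, 10.5 CPM of the tetranectin gene Clec3b (next 47.3). Dkk3 was at 53.3 CPM in Sham/Benzene replicate 4 (next 26.8) and at 44.2 CPM in TAC/Benzene replicate 5 (next lowest 47.3). Without Sham/Air replicate 1 Clec3a was at 1.22 for benzene over air in sham mice, against 0.94 with it, and still not called.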

How the results depend on the processing

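Signs of the 9 genes were kept in all comparisons and settings where they had a called value. Counts of called genes moved more. For benzene over air in sham mice, with 3 calls, there was 1 without the low-count filter, 1 with only the 2 groups compared, 28 with DESeq2 and 1 to 5 (without Sham/Benzene replicate 1) leaving out each library. For benzene over air in TAC mice, with 79, there were 46 with the replicate block, 276 with only the 2 groups compared, 171 with DESeq2 and 52 (without TAC/Benzene replicate 2) to 234 (without Sham/Air replicate 1). For TAC in air, with 2193, there were 1278 with only those 2 groups and 1907 to 3169 leaving out each library. For TAC in benzene, with 2257, the range was 1929 to 3667, highest without Sham/Air replicate 1. For the difference of responses, with 23, there were 14 with the replicate block, 57 with DESeq2 and 15 (without Sham/Air replicate 4) to 49 (without Sham/Air replicate 1).

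Replicate numbers were shared by groups, but same-numbered libraries did not deviate together: correlations of deviations over 36 pairs ran from -0.53 to 0.47, and 1 of 24 libraries correlated best with its own number. The replicate block is thus an alternative only. In sham mice Cnmd changed sign, at -0.0226 with the replicate block and -0.0688 to 0.129 leaving out each library, and Efemp1 ran from -0.15 to 0.0942 (without Sham/Air replicate 1). Of 31 values given for other named genes, 25 kept their direction and side of the threshold in each setting run, and none of the 31 reversed. Those that changed were of Cytl1, Hapln1, Sox6, Clec3b and Wif1: Sox6 in air lost its call with only the 2 groups compared (adjusted p = 0.0978) and Clec3b with the replicate block (0.0564). Acan was not tested at a mean of at least 1 CPM, nor, for either sham comparison with air, with only the 2 groups compared. Depth limits Acan most, with at most 29 reads in a library. The cause of these shifts was not tested.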

Other observations

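Genes related to the 9 by protein family were mostly higher after TAC. Of 17 listed, 15 were tested. After TAC in benzene 8 were called higher and 3 lower, where 8.67% and 7.97% of all tested genes were, and after TAC in air 10 higher and 1 lower, where 8.81% and 7.35% were. Tnmd, the tendon relative of Cnmd, was at 2.63 ± 0.29 in benzene and 3.64 ± 0.32 in air on the log2 scale, the opposite direction to Cnmd. Sparc, of the family of Smoc1, was at 1.16 ± 0.07 in benzene and 1.02 ± 0.07 in air. Fbln5, a fibulin gene like Efemp1, was at 0.90 ± 0.08 in benzene and 1.03 ± 0.08 in air, again opposite to Efemp1. Fbln2 was at 1.06 ± 0.14 after TAC in benzene, and Fbln1 at 0.93 ± 0.09 after TAC in air.

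The ferritin receptor gene Scara5, a relative of Scara3, was lower with TAC, at -1.54 ± 0.08 in benzene and -1.06 ± 0.08 in air. It was also the 1 relative of 15 called for benzene over air in TAC mice, where 0.287% of all tested genes were called lower. Scara5 was at -0.49 ± 0.08 there (edgeR adjusted p = 0.00313), with 16.1 ± 1.18 CPM in TAC/Benzene and 22.5 ± 0.95 CPM in TAC/Air (SD, n = 6). In sham mice 0 of 15 relatives were called for benzene by edgeR or by DESeq2, where edgeR called 0.0221% of all tested genes. At an unadjusted p under 0.05 there were 2 higher and 1 lower, against 777 of 13571 genes over the whole table. Clec3b at -0.76 ± 0.23 and Sox10 at -1.09 ± 0.30 were the other relatives called lower after TAC in benzene, and Clec3b was not called with the replicate block (adjusted p = 0.0564).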
